A study of Mus musculus with 3 samples.

Results

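The toll-like receptors of splenic macrophages from mice with acute myeloid leukemia are described here, with the chaperone that carries the endosomal ones. The 10 genes were found by NCBI mouse gene ID in the deposited tables, which list 17615 genes in any library, and all 10 were present in every library. By location they are 4 surface members (Tlr1, Tlr2, Tlr4 and Tlr6) and 6 endosomal members (Tlr3, Tlr7, Tlr8, Tlr9, Tlr13 and the chaperone Unc93b1).

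The macrophages came from C57BL/6J mice, 6 to 8 weeks old, that had been given 800000 leukemia cells each without irradiation. The leukemia cells, positive for GFP and BFP in all groups, had either mM-CSF or sM-CSF at a high level, or no added factor (the control leukemia). What the letters m and s stand for is not stated in the labels. M-CSF is the growth factor of macrophages, the product of Csf1. GR1-, CD115 intermediate, F4/80+ cells were sorted from the spleen on day 18, in mice whose survival was 30 to 40 days. Each group has 1 library, with 8570730 (mM-CSF), 8943850 (sM-CSF) and 9088200 (control) estimated counts. No difference below has a replicate check, no test between conditions was possible, and intervals cover counting error only. Whether a library came from 1 mouse or from pooled mice was not stated.

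Toll-like receptors recognise conserved microbial molecules through leucine-rich repeats and signal through a cytoplasmic TIR domain. Those at the cell surface bind bacterial lipids and lipoproteins, Tlr4 as a dimer with itself and Tlr2 paired with Tlr1 or Tlr6. Those in endosomes bind nucleic acids. Unc93b1 brings them there from the endoplasmic reticulum, and proteases then trim several of them into working receptors. Most members signal through the adaptor Myd88, Tlr3 through Ticam1 and Tlr4 through both. Besides macrophages, B cells and dendritic cells carry several of these receptors, among them Tlr7 and Tlr9.

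Unc93b1 was the most abundant member in every library, on the per-length FPKM scale, and Tlr1 was second in every library. In the control library Tlr9, Tlr7 and Tlr13 followed Tlr1, at 50.6, 45.2 and 37.7 FPKM, ahead of Tlr2 at 21.3 FPKM. The sM-CSF library had the same order of these 4 genes. In the mM-CSF library Tlr2 came directly after Tlr1, and Tlr9 stood at rank 7 of 10. Neighbours in the order whose 95% counting intervals overlapped were Tlr13 with Tlr4, Tlr9 with Tlr8 and Tlr6 with Tlr3 in the mM-CSF library. In the sM-CSF library the intervals of Tlr8, Tlr4, Tlr6 and Tlr3 each overlapped with the next, and in the control library those of Tlr4 with Tlr3 and Tlr3 with Tlr6.

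**Figure D1:**
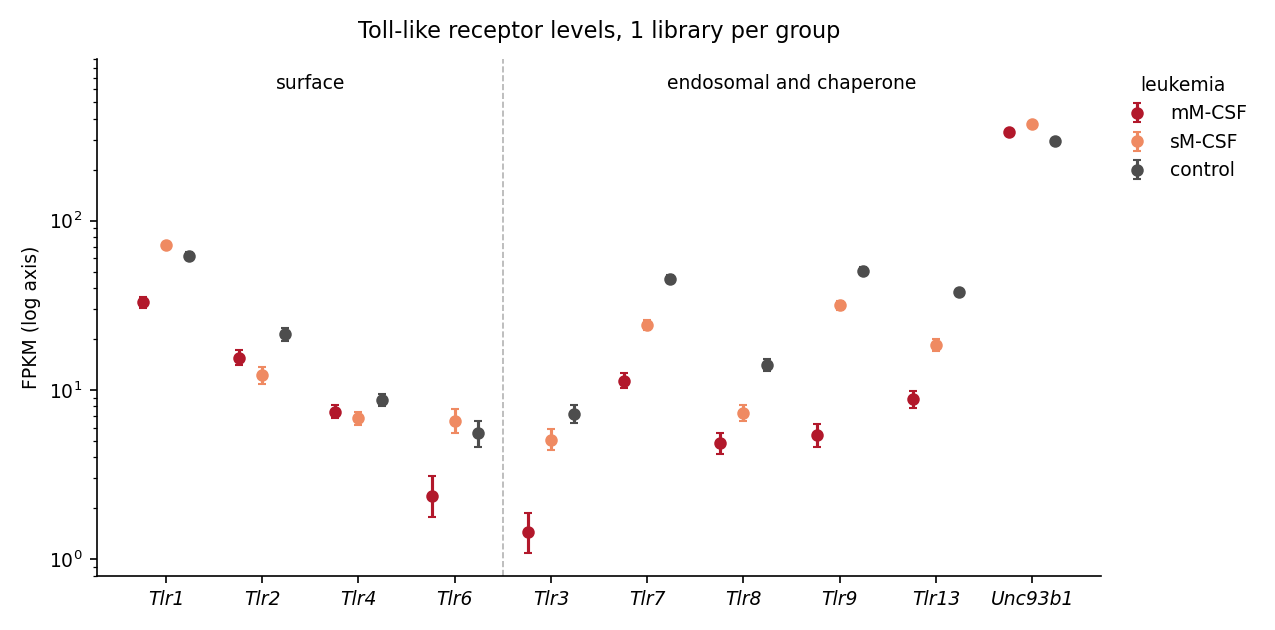
Level of each member in FPKM on a log axis, in the mM-CSF, sM-CSF and control libraries (1 library each), with bars for the 95% counting interval. The 5 endosomal receptors stand in the same order of libraries, mM-CSF lowest and control highest, whereas Unc93b1 lies between 297 and 373 FPKM in the 3 libraries.

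The first comparison asks how the receptors of macrophages from mM-CSF leukemia differ from those of control leukemia. All 5 endosomal receptors were lower in mM-CSF. Their chaperone Unc93b1 and the 4 surface members were not called by the rule below, but Tlr6 stood close to it. Tlr6 passed 2-fold with a pseudocount of 0.1 FPKM (-1.19), with CPM (-1.09) and with TPM (-1.26), and Tlr1 with TPM (-1.34). A gene was called lower or higher where log2(FPKM + 1) differed by at least 1 and at least 5 FPKM were reached in one of the libraries compared. By this rule 5 of the 10 members were lower and 0 higher, against 15.1% lower among the 9789 genes tested. Among the 1625 tested genes as long as the endosomal receptors (3471 to 4688 bases on average), 19.1% were lower. The median difference over the 10 members was -1.16, against -0.05 over all genes tested. Tlr3, Tlr6 and Tlr8 reached 5 FPKM only in the control library of this comparison. In a bulk library, fewer cells that carry a receptor and less of its RNA per cell cannot be told apart.

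Tlr9 (gene 81897), the receptor for unmethylated CpG DNA, showed the widest gap. It was at 5.41 FPKM in mM-CSF, 31.7 in sM-CSF and 50.6 in control, so sM-CSF lay between the others. Its share of counts was 9.30-fold lower in mM-CSF than in control (95% interval 7.91 to 11.0), from 163 counts in mM-CSF and 1607 counts in control. The difference of -3.01 was lower than that of all but 0.490% of the genes tested.

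Tlr13 (gene 279572), a mouse receptor for bacterial ribosomal RNA, was at 8.83 FPKM in mM-CSF, 18.5 in sM-CSF and 37.7 in control. Its share of counts was 4.24-fold lower in mM-CSF than in control (3.74 to 4.81). Tlr7 (gene 170743), which binds single-stranded RNA, was at 11.3, 24.1 and 45.2 FPKM in the mM-CSF, sM-CSF and control libraries. Its share was 3.96-fold lower in mM-CSF than in control (3.54 to 4.45). For both genes the 3 libraries were well separated, with sM-CSF between mM-CSF and control.

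Tlr3 (gene 142980), the receptor for double-stranded RNA, was the least abundant member in the mM-CSF library, at 1.44 FPKM, against 5.09 in sM-CSF and 7.21 in control. Its share of counts was 4.99-fold lower in mM-CSF than in control, with a wider interval of 3.72 to 6.81 because the mM-CSF library held 54 counts. Tlr8 (gene 170744), another receptor of the RNA-sensing group, was at 4.85 FPKM in mM-CSF, 7.31 in sM-CSF and 14.0 in control. Its share was 3.23-fold lower in mM-CSF than in control (2.74 to 3.83). The authors' length for Tlr8, which lists 3 transcripts, was 4358 bases in the mM-CSF, 4794 in the sM-CSF and 4912 in the control table, so its FPKM and its share of counts are not on one scale across libraries.

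Unc93b1 (gene 54445) was at 335 FPKM in mM-CSF, 373 in sM-CSF and 297 in control. Its share of counts was 1.14-fold that of the control in mM-CSF (1.10 to 1.18), and the difference of 0.17 turned to -0.29 when the libraries were rescaled to TPM. The summed level of the 5 endosomal receptors was 31.9 FPKM in mM-CSF, 86.6 in sM-CSF and 155 in control. Unc93b1 was thus at 10.5 times the summed receptors in mM-CSF, 4.30 times in sM-CSF and 1.92 times in control.

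None of the surface members was called by the rule. Tlr1 (gene 21897), which pairs with Tlr2 for triacylated lipoproteins, was at 32.9 FPKM in mM-CSF, 71.9 in sM-CSF and 61.8 in control, a difference of -0.89 between mM-CSF and control and a share of counts 1.93-fold lower (1.77 to 2.10). Tlr6 (gene 21899), which pairs with Tlr2 for diacylated lipoproteins, was at 2.38, 6.56 and 5.54 FPKM in the same order, a difference of -0.95. Its share of counts was 2.32-fold lower in mM-CSF than in control (1.67 to 3.25), an interval that overlaps that of Tlr8. Tlr1 and Tlr6 kept nearly the same ratio to each other, 13.8 in mM-CSF (10.5 to 18.6), 11.0 in sM-CSF (9.29 to 13.0) and 11.1 in control (9.33 to 13.4), and these intervals overlap. Of the stretches of 31 bases in the annotated Tlr1 coding transcripts, 19.5% also occur in those of Tlr6, and their estimated counts were not whole, so the division of reads between them is uncertain. Tlr6 also shares 868 bases of its span with Fam114a1, which was at 1.72 FPKM in mM-CSF, 3.17 in sM-CSF and 3.49 in control.

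Tlr2 (gene 24088), the common partner in these pairs, was at 15.5 FPKM in mM-CSF, 12.2 in sM-CSF and 21.3 in control, a difference of -0.43 between mM-CSF and control. Tlr4 (gene 21898), the lipopolysaccharide receptor, was at 7.43, 6.81 and 8.76 FPKM in the same order, the narrowest spread of the 10 members in FPKM relative to its level apart from Unc93b1. Its share of counts was 1.17-fold lower in mM-CSF than in control (1.04 to 1.32). Tlr2 had 0.471 times the level of Tlr1 in mM-CSF (0.416 to 0.533), 0.170 times in sM-CSF (0.150 to 0.192) and 0.345 times in control (0.312 to 0.380).

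**Figure D2:**
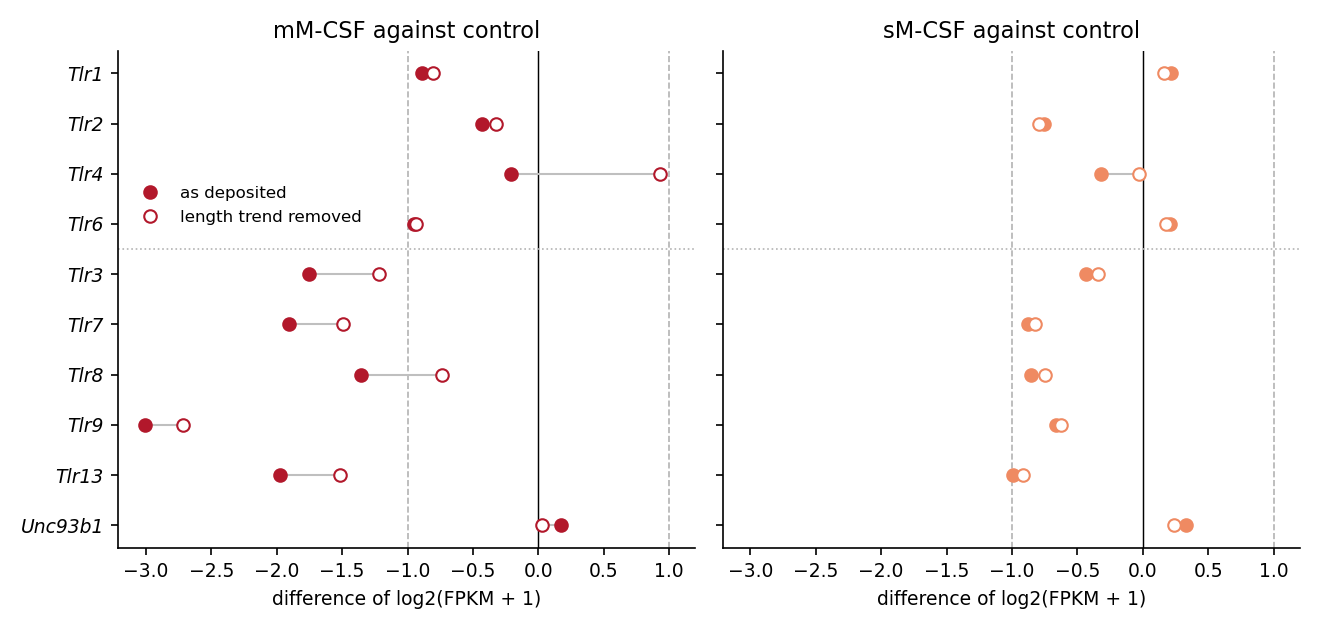
Difference of log2(FPKM + 1) for each member, mM-CSF against control on the left and sM-CSF against control on the right, as deposited (filled) and with the trend on gene length removed (open). Dashed lines mark 2-fold, and in the left panel Tlr9 stands farthest from 0, at -3.01 as deposited and -2.72 without the trend.

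The DNA before the start of 5 members is given because Tlr3, Tlr8, Tlr9 and Tlr13 were lower together in mM-CSF and Tlr2 was not called, and because the RefSeq promoter table (GRCm38.p6) gives each of them a single start. Tlr7, which was lower as well, is not in that table. The windows hold the 250 bases before the start, 5′ to 3′ on the gene's strand. They lie at chr9:106222348-106222597 on the plus strand (Tlr9), chrX:106143025-106143274 on the plus strand (Tlr13), chrX:167264330-167264579 on the minus strand (Tlr8), chr8:45410381-45410630 on the minus strand (Tlr3) and chr3:83841609-83841858 on the minus strand (Tlr2). Capitals mark a match on either strand to the core bound by PU.1, the myeloid factor encoded by Spi1 (GAGGAA), to an interferon-stimulated response element (GAAA, any 2 bases, GAAA), to an NF-kB site (GGGA, any 2 bases, TTCC) or to an AP-1 site (TGANTCA).
Tlr9: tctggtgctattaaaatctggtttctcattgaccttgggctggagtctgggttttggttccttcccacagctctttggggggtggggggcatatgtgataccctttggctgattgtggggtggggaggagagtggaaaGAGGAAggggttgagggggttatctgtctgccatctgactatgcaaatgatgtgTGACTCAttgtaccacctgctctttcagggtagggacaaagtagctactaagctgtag
Tlr13: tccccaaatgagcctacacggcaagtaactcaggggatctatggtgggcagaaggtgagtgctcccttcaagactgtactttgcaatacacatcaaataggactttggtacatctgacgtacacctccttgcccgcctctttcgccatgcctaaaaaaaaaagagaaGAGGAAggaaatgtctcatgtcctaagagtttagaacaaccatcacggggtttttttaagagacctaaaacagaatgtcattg
Tlr8: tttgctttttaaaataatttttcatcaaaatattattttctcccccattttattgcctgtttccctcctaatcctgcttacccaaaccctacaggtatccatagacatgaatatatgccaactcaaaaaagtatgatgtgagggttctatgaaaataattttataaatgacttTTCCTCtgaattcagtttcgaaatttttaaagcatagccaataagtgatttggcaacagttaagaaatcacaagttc
Tlr3: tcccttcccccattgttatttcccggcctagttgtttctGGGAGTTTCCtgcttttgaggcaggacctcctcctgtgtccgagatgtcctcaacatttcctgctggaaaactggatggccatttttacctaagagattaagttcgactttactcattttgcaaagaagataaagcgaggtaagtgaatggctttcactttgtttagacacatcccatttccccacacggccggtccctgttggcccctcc
Tlr2: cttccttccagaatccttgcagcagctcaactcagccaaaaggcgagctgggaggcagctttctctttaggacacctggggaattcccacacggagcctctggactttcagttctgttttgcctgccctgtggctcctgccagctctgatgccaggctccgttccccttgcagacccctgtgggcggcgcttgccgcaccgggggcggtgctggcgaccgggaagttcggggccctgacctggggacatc
The PU.1 core was in the windows of Tlr9, Tlr13 and Tlr8, at 112, 83 and 77 bases before the start, and in 23.3% of all 32851 windows in the table. The AP-1 letters were in the Tlr9 window, 58 bases before the start, and in 6.75% of all windows. The NF-kB letters were in the Tlr3 window, 211 bases before the start, and in 1.21% of all windows. The response element letters were in none of these 5 windows and in 2.98% of all windows. The surface genes Tlr1 and Tlr6 have 2 starts each in the table, and 1 Tlr1 window held the PU.1 core, 23 bases before its start, and 1 Tlr6 window held the response element letters at 2 places. Tlr1 was within 2-fold in mM-CSF against control, but was called lower in mM-CSF against sM-CSF. The part of PU.1 in the receptor values was not tested. A wider NF-kB pattern (GGG, a purine, any 2 bases, 2 pyrimidines, CC), searched after the sequences were seen, was in the Tlr2 and Tlr3 windows, in none of the other members' windows and in 7.25% of all windows. The Tlr2 window had the highest GC content of the 5, 62.8%, against 31.2% for Tlr8, 44.4% for Tlr13, 48.0% for Tlr3, 50.4% for Tlr9 and a median of 52.4% over all windows. Spi1 itself was at 120 FPKM in mM-CSF, 156 in sM-CSF and 194 in control.

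Macrophages from sM-CSF leukemia were set against the same control. None of the 10 members passed the rule, against 1.63% lower and 0.785% higher among the 9683 genes tested, and 1.54% lower among the 1627 as long as the endosomal receptors. At the looser size of 1.5-fold, 5 members were lower, against 5.8% of all genes tested. These were the surface gene Tlr2 and the endosomal Tlr7, Tlr8, Tlr9 and Tlr13, but not Tlr3. The differences of the 5 endosomal receptors lay between -0.99 and -0.43, with a median of -0.85, against 0.02 over all genes tested. Tlr13 was closest to the 2-fold line, with a share of counts 2.04-fold lower in sM-CSF than in control (1.86 to 2.24). Tlr7 was 1.88-fold lower (1.72 to 2.04), Tlr8 1.96-fold lower (1.71 to 2.25), Tlr9 1.60-fold lower (1.47 to 1.73) and Tlr3 1.41-fold lower (1.18 to 1.70). All 5 intervals lie below equality, which concerns the counts of these libraries and not the conditions.

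The surface members split in sM-CSF. Tlr2 had a difference of -0.75, with a share 1.74-fold lower than in control (1.51 to 2.0), and Tlr4 one of -0.32. Tlr1 and Tlr6, whose reads are partly shared, stood slightly above the control, at 0.22 and 0.21, with shares 1.15-fold (1.07 to 1.23) and 1.19-fold (0.933 to 1.51) those of the control. Unc93b1 had a difference of 0.33, with a share 1.26-fold that of the control (1.22 to 1.30). Both comparisons are set against the same control library, so their values are not independent.

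Between the libraries with M-CSF, 5 of the 10 members were lower in mM-CSF than in sM-CSF, against 8.73% lower and 3.79% higher among the 9574 genes tested and 10.9% lower among the 1592 as long as the endosomal receptors. These were Tlr9 (-2.35), Tlr3 (-1.32), Tlr6 (-1.16), Tlr1 (-1.10) and Tlr7 (-1.02). Tlr3 and Tlr6 reached 5 FPKM only in the sM-CSF library of this comparison. Tlr9 had a share of counts 5.83-fold lower in mM-CSF than in sM-CSF (4.93 to 6.92), and Tlr1 one 2.21-fold lower (2.03 to 2.41). Tlr13 was at -0.99, just short of the rule, and Tlr8 at -0.51. Tlr2 and Tlr4 were at 0.32 and 0.11 and Unc93b1 at -0.15. With the trend on gene length removed, Tlr9 (-2.09) and Tlr6 (-1.07) were lower, against 4.67% lower and 1.99% higher among all genes tested.

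The mix of endosomal receptors also differed. Tlr9 made up 17.0% of the summed FPKM of the 5 endosomal receptors in mM-CSF, 36.6% in sM-CSF and 32.7% in control, while Tlr7 made up 35.6%, 27.8% and 29.2%. The level of Tlr9 was 0.477 times that of Tlr7 in mM-CSF (0.395 to 0.575), 1.32 times in sM-CSF (1.20 to 1.44) and 1.12 times in control (1.04 to 1.20). Tlr7 had 2.34 times the level of Tlr8 in mM-CSF (1.95 to 2.80), 3.29 times in sM-CSF (2.89 to 3.76) and 3.23 times in control (2.94 to 3.55). On estimated counts, which do not carry the changed Tlr8 length, the ratio was 2.04 in mM-CSF (1.71 to 2.45), 2.62 in sM-CSF (2.29 to 2.99) and 2.50 in control (2.28 to 2.75), and these intervals overlap.

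Set against each other, the 6 endosomal members had a mean difference 1.02 lower on the log2 scale than the 4 surface members in mM-CSF against control (95% counting interval -1.15 to -0.88). The summed endosomal receptors were at 0.547 times the summed surface members in mM-CSF, 0.889 times in sM-CSF and 1.59 times in control. In sM-CSF against control the gap between the means was -0.42 (-0.53 to -0.31), but -0.044 without Tlr1 and Tlr6. Tlr2 and Tlr4 stood at -0.75 and -0.32 there. The endosomal mean was -0.58 over the 6 members and -0.76 over the 5 receptors without Unc93b1, so the value of -0.044 also depends on counting the chaperone. In mM-CSF against sM-CSF the gap over all members was -0.60 (-0.73 to -0.46). The differences of the surface members (-0.95 to -0.21) and of the 5 endosomal receptors (-3.01 to -1.36) did not overlap in mM-CSF against control, where 15.1% of all genes tested were called lower. This separation covers the chosen members only. Tlr5, Tlr11 and Tlr12, given below, were not part of it.

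Gene length bears on these values, because the difference between mM-CSF and control fell with length across genes (Spearman's rho -0.69 over 9251 genes, which are not independent). The endosomal receptors are long, and the running median at their length was -0.29 for Tlr9, -0.41 for Tlr7, -0.46 for Tlr13, -0.53 for Tlr3 and -0.62 for Tlr8. With this trend removed, Tlr9 was at -2.72, Tlr13 at -1.52, Tlr7 at -1.50 and Tlr3 at -1.22, all still past 2-fold, and Tlr8 at -0.73, which was not. In that setting 4 of 10 members were lower, against 7.95% lower and 2.93% higher among all genes tested. In sM-CSF against control 0 members passed without the trend, against 1.79% lower and 0.485% higher. In mM-CSF against control without the trend, Tlr8 lay above the surface members Tlr6 (-0.94) and Tlr1 (-0.81), so that the ranges of both locations overlapped. Tlr4, the longest member at 7891 bases, moved to 0.93 without the trend, from a fitted trend of -1.14 at its length, so its sign differed between these scales.

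**Figure D3:**
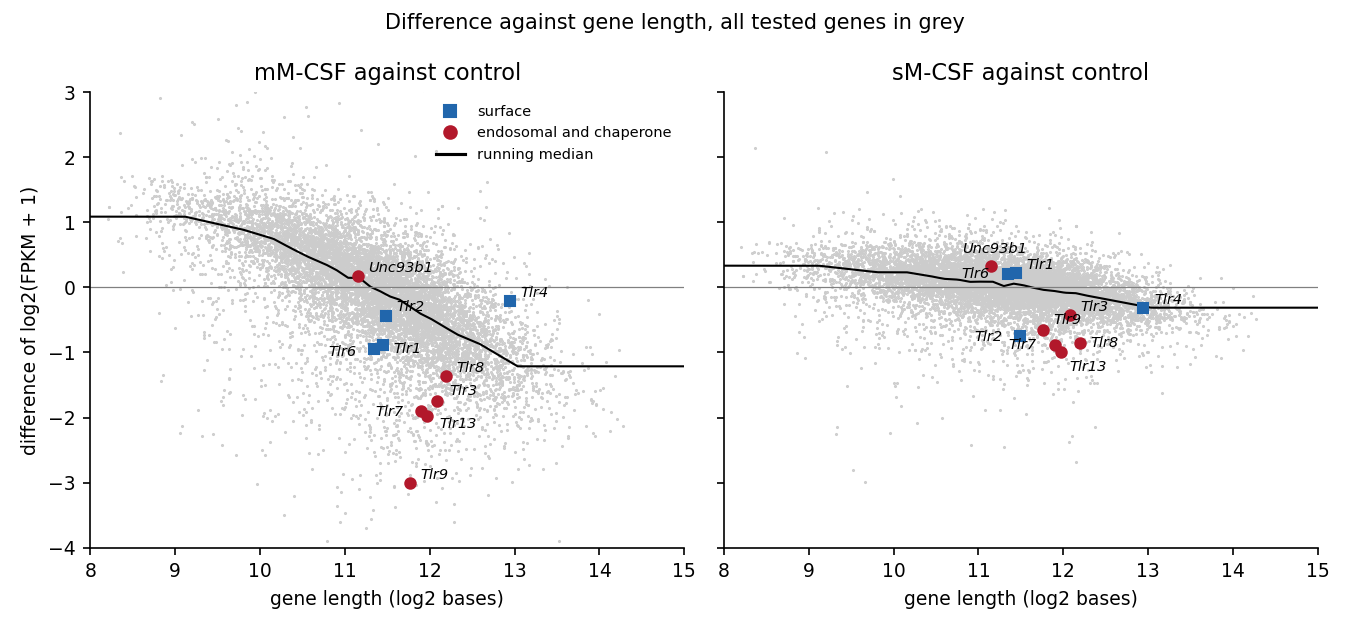
Difference of log2(FPKM + 1) against gene length in log2 bases for mM-CSF (left) and sM-CSF (right) against control, with all tested genes in grey, the running median as a line and the members as squares (surface) or circles (endosomal and chaperone). A few grey points lie beyond the axes. Tlr9 stands far below the median of genes of its length, and Tlr4 above it in the mM-CSF panel.

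Other toll-like receptors were read from the same tables. Tlr11 (gene 239081), a mouse receptor for the profilin of protozoa that also depends on Unc93b1, was at 0.72 FPKM in mM-CSF, 9.89 in sM-CSF and 9.41 in control, a difference of -2.60 between mM-CSF and control. Its share of counts was 13.0-fold lower in mM-CSF than in control (8.26 to 21.6), from 20 counts in mM-CSF. In that comparison it was tested only through the control library. Tlr12, its partner for profilin, was at 4.47, 4.44 and 4.04 FPKM, and Tlr5, the flagellin receptor, at 0.18, 3.71 and 3.73 FPKM. Tlr11 and Tlr5 were lowest in mM-CSF and nearly level in the other libraries. Tlr5 and Tlr12 stayed under 5 FPKM in every library and were not tested. Tlr5, a receptor of the cell surface, was thus low in mM-CSF, whereas Tlr12 was not, so the split by location above does not extend to them.

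The genes that work with the receptors did not follow one course. Of 66 genes of receptor delivery, folding, processing, signalling and its control, 62 were tested in mM-CSF against control, of which 15 were lower and 3 were higher. Their median was -0.35. These shares were 15.1% lower and 8.97% higher among all genes tested. With the length trend removed, 9 were lower and 3 higher, against 7.95% and 2.93% of all genes tested. In sM-CSF against control 1 of 62 was lower and 0 were higher, against 1.63% and 0.785% of all genes tested, with a median of -0.12. The counts of the pathway lists below stand against these shares of all genes tested in each comparison.

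Among surface co-receptors, 2 of 5 tested genes were lower in mM-CSF against control. Cd180, a Tlr4-like receptor that lacks a TIR domain, was at 33.7 FPKM in mM-CSF, 83.4 in sM-CSF and 121 in control. Cd36, a co-receptor of Tlr2 and Tlr6, was at 5.92, 13.6 and 25.8 FPKM. The genes that complete the Tlr4 receptor were within 2-fold, with Cd14 at 24.8 FPKM in mM-CSF, 12.5 in sM-CSF and 16.4 in control, and Ly96 at 21.4, 12.2 and 15.3 FPKM. Ly86, the partner of Cd180, was at 230.4, 194 and 156 FPKM, and so did not share the course of Cd180. Its difference of 0.56 in mM-CSF against control was -0.26 with the length trend removed and 0.09 with TPM. Cd180 stood at -1.81, -1.94 and -2.26 on these scales. With the trend removed, Ly96 moved from 0.46 to -0.59 and Cd14 from 0.57 to 0.18.

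Of 8 tested folding and trafficking genes 1 was lower and 0 were higher in mM-CSF against control, and of 10 tested processing genes 0 were lower and 2 higher. Hsp90b1, the chaperone that folds most toll-like receptors, stood at 757 FPKM in mM-CSF, 398 in sM-CSF and 431 in control, a difference of 0.81. Slc29a3, a lysosomal nucleoside transporter, was the gene called lower, at 9.31, 17.7 and 24.6 FPKM, but stood at -0.57 with the length trend removed. Slc15a4, a lysosomal transporter needed for Tlr7 and Tlr9 signalling, was at 25.8, 35.9 and 44.8 FPKM.

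The processing genes that were higher are enzymes that break down nucleic acids. Pld3, an exonuclease that degrades nucleic acid ligands, was at 205 FPKM in mM-CSF, 95.3 in sM-CSF and 81.4 in control, and remained past 2-fold with the length trend removed (1.18). Dnase2a, the lysosomal DNase, was at 79.1, 45.7 and 38.7 FPKM, a difference of 1.01 that was 0.61 without the trend. Ctsl, a cathepsin that trims endosomal receptors, was at 18.6, 8.30 and 9.22 FPKM, a difference of 0.94 that passed 2-fold without the trend (1.25). Rescaled to TPM, Pld3 stood at 0.86, Dnase2a at 0.56 and Ctsl at 0.50 in mM-CSF against control, all within 2-fold. Rnaset2a, which releases RNA ligands in lysosomes, was at 317, 203 and 168 FPKM, but its value and that of its near-identical copy Rnaset2b are uncertain.

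No adaptor or kinase was higher in mM-CSF against control by the rule. Myd88, the adaptor shared by most members, was at 35.3 FPKM in mM-CSF, 39.4 in sM-CSF and 49.5 in control, a difference of -0.48. Of 5 tested adaptors 2 were lower in mM-CSF against control. Pik3ap1, which links the receptors to PI3 kinase, was at 12.1, 47.0 and 78.2 FPKM, and Ticam2, the bridging adaptor of Tlr4, at 4.45, 10.2 and 14.1 FPKM. Ticam2 was under 5 FPKM in mM-CSF and was tested only through the control library. Of 17 kinases and ubiquitin ligases 6 were lower as deposited and 2 with the length trend removed. Tab2, an adaptor of the kinase TAK1, was at 26.8, 56.1 and 76.5 FPKM (-1.48, or -0.96 without the trend), Chuk, which encodes IKK alpha, at 9.51, 22.7 and 26.9 FPKM (-1.41, or -1.10), and Traf6 at 5.42, 12.4 and 14.9 FPKM (-1.30, or -0.45).

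Of 8 transcription factors 2 were lower in mM-CSF against control. Rel, the NF-kB subunit c-Rel, had the widest gap of all the pathway genes tested, at 2.69 FPKM in mM-CSF, 16.3 in sM-CSF and 38.6 in control, differences of -3.42 and -1.19 against the control. With 60 counts in mM-CSF, Rel was tested in mM-CSF against control only through the control library. It was also the 1 pathway gene called lower in sM-CSF. Nfkb1 was at 46.8, 88.3 and 106 FPKM, a difference of -1.16 in mM-CSF that was -0.68 without the trend. Irf5, which acts after Myd88, was at 91.4, 143 and 151 FPKM, and Irf3, which acts after Ticam1, at 73.8, 64.0 and 47.2 FPKM, both within 2-fold of the control.

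Of 9 tested negative regulators 2 were lower and 1 higher in mM-CSF against control, where 15.1% and 8.97% of all genes tested were. With the length trend removed, 2 were lower and 0 higher. Tnfaip3, which encodes the ubiquitin-editing enzyme A20, was at 9.48 FPKM in mM-CSF, 26.2 in sM-CSF and 37.7 in control. Irak3, an inhibitory relative of the Irak kinases, was at 6.18, 10.4 and 15.5 FPKM. Sigirr, an inhibitory receptor of the superfamily that holds the toll-like receptors, was higher, at 21.8, 17.8 and 9.42 FPKM. Its difference of 1.13 was 0.91 without the trend and 0.69 with TPM.

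**Figure D4:**
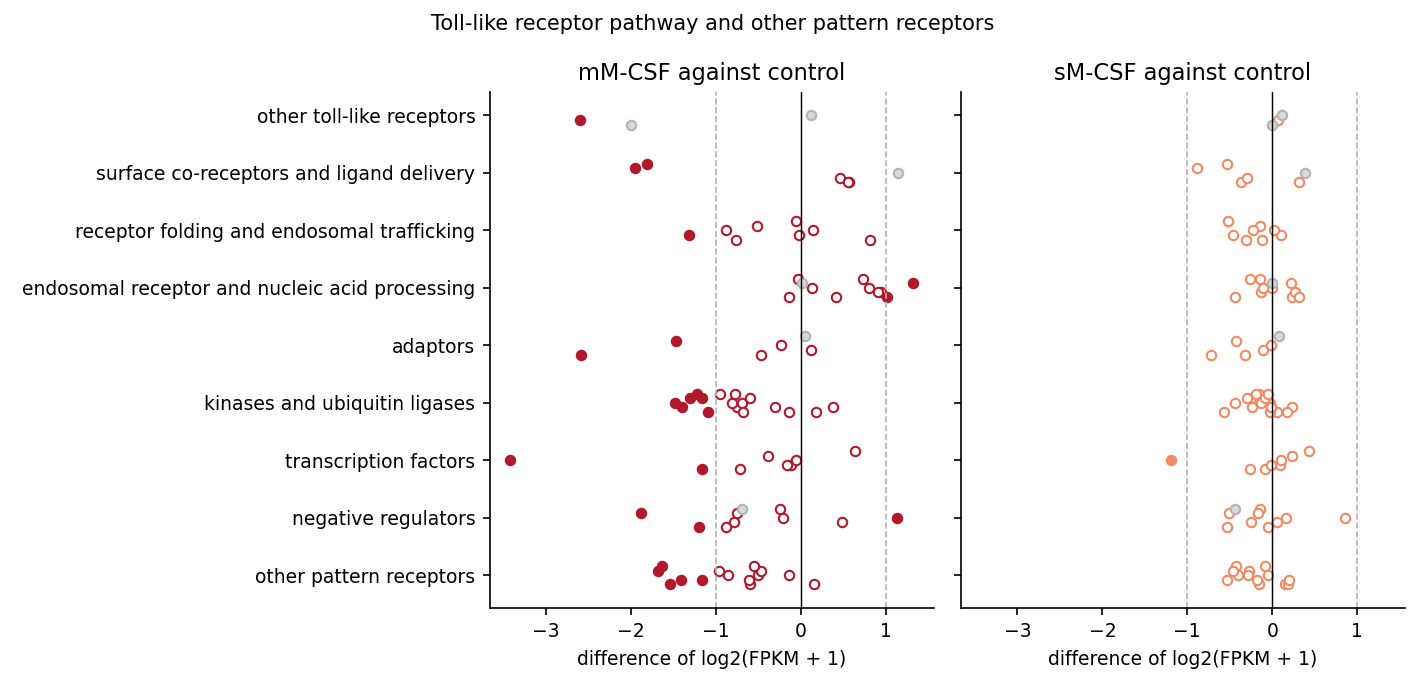
Difference of log2(FPKM + 1) of each listed pathway gene in mM-CSF (left) and sM-CSF (right) against control, where filled points passed the rule, open points did not and grey points were below 5 FPKM in both libraries. Dashed lines mark 2-fold. Rel is the leftmost point of both panels, at -3.42 and -1.19, and processing genes lie mostly right of 0 in mM-CSF.

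Pattern receptors outside the family were lower in 5 of 14 cases in mM-CSF against control and in 0 of 14 in sM-CSF against control, where 15.1% and 1.63% of all genes tested were lower. Clec7a, the beta-glucan receptor dectin-1, was at 9.47 FPKM in mM-CSF, 23.4 in sM-CSF and 32.7 in control. Nlrp3, an inflammasome sensor, was at 3.41, 10.5 and 11.8 FPKM, Ifih1, the RNA sensor MDA5, at 3.51, 7.31 and 11.0 FPKM, and Nod2, a sensor of muramyl dipeptide, at 1.39, 4.55 and 6.44 FPKM. Nlrc4, another inflammasome gene, was at 3.85, 8.59 and 9.88 FPKM. Of these 5 genes, all but Clec7a were under 5 FPKM in mM-CSF and were tested only through the control library. The median over these 14 genes was -0.74 in mM-CSF and -0.23 in sM-CSF. With the length trend removed, 3 of them were lower in mM-CSF, against 7.95% of all genes tested.

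Likeness of course was measured as the distance between the pairs of differences from the control, over 3 libraries. It covered 7646 genes at 10 FPKM or more in any library, with predicted gene models and genes without a symbol left out. The gene nearest to Tlr9 was Zbtb46, a transcription factor of conventional dendritic cells, at a distance of 0.12, followed by Klf3 at 0.13. Zbtb46 was at 1.46 FPKM in mM-CSF, 13.1 in sM-CSF and 20.1 in control. The nearest to Tlr7 were Cd36 (0.05) and Samsn1 (0.07), and to Tlr13 Tnpo1 (0.08) and Spata13 (0.09). Those nearest to Tlr4 were Pltp (0.01) and Sec23b (0.03), and those nearest to Tlr2 were Rras (0.07) and Sh2d1b1 (0.07). With 3 libraries, many genes lie close to any given course.

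Markers of the sorted cells and of other cells with these receptors moved as well. Csf1r, which encodes CD115, was at 222 FPKM in mM-CSF, 149 in sM-CSF and 268 in control, and Adgre1, for F4/80, at 67.5, 65.5 and 101 FPKM. The defining macrophage markers were thus present in every library. The counts of markers below stand against 15.1% lower and 8.97% higher among all genes tested in mM-CSF against control, and 1.63% lower and 0.785% higher in sM-CSF against control. FPKM over all genes summed to 624289 in mM-CSF, 500018 in sM-CSF and 452400 in control. Rescaled to TPM, the marker sums below would thus fall in both M-CSF libraries relative to the control. Of 12 macrophage identity genes 4 were lower and 1 higher in mM-CSF, and 3 lower and 0 higher in sM-CSF, with medians of -0.42 and -0.46. Centred on the first of these medians, 4 members were lower in mM-CSF, and Tlr8 no longer passed.

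Conventional dendritic cell genes were lower in 7 of 10 cases in mM-CSF and in 0 of 10 in sM-CSF, and their summed level was 181 FPKM in mM-CSF, 464 in sM-CSF and 500.01 in control. Non-classical monocyte genes were lower in 6 of 10 cases in mM-CSF and in 7 of 10 in sM-CSF, with summed levels of 571, 650 and 1416 FPKM. Ace, a marker of these monocytes, was at 4.09, 26.5 and 132 FPKM. The part of either cell type in the receptor values was not tested.

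B cell genes had summed levels of 2922 FPKM in mM-CSF, 2834 in sM-CSF and 1555 in control, with 3 of 11 higher in each M-CSF library and 1 lower in mM-CSF. With the length trend removed, 0 of the 11 passed in either comparison. Cd79a, a part of the B cell receptor, was at 1117, 958 and 468 FPKM. Plasmacytoid dendritic cell genes had summed levels of 813, 575 and 367 FPKM, with 4 of 9 tested genes higher and 1 lower in mM-CSF, or 2 higher and 1 lower with the length trend removed, and 0 called in sM-CSF. Most of that sum was Ly6d, which B cells also express, and Siglech, their more specific marker, was at 3.37 FPKM in mM-CSF, 5.69 in sM-CSF and 6.90 in control. No marker of these 2 lists was at 0 in any library. Their part in the receptor values was not tested.

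Neutrophil genes had summed levels of 676 FPKM in mM-CSF, 127 in sM-CSF and 136 in control, with S100a8 at 122, 15.8 and 10.7 FPKM and Ly6g at 1.45, 0.36 and 0.25 FPKM. Plasma cell genes summed to 4418, 1485 and 1431 FPKM, led by Jchain at 3301, 1072 and 1008 FPKM. T cell genes summed to 559, 523 and 315 FPKM, with Cd3e at 71.5, 59.5 and 28.8 FPKM. Erythroid genes summed to 3635, 3244 and 4378 FPKM, with Hba-a1 at 1990, 1659 and 2336 FPKM. In mM-CSF against control 5 of 7 tested neutrophil genes were higher and 1 lower, 4 of 7 plasma cell genes were higher, 4 of 9 T cell genes were higher and 1 lower, and 5 of 10 erythroid genes were lower. In sM-CSF against control 3 T cell genes were higher and 4 erythroid genes lower, with 0 calls among neutrophil and plasma cell genes. With the length trend removed, the T cell genes that were higher numbered 3 in mM-CSF and 0 in sM-CSF. Their part in the receptor values was not tested either.

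**Figure D5:**
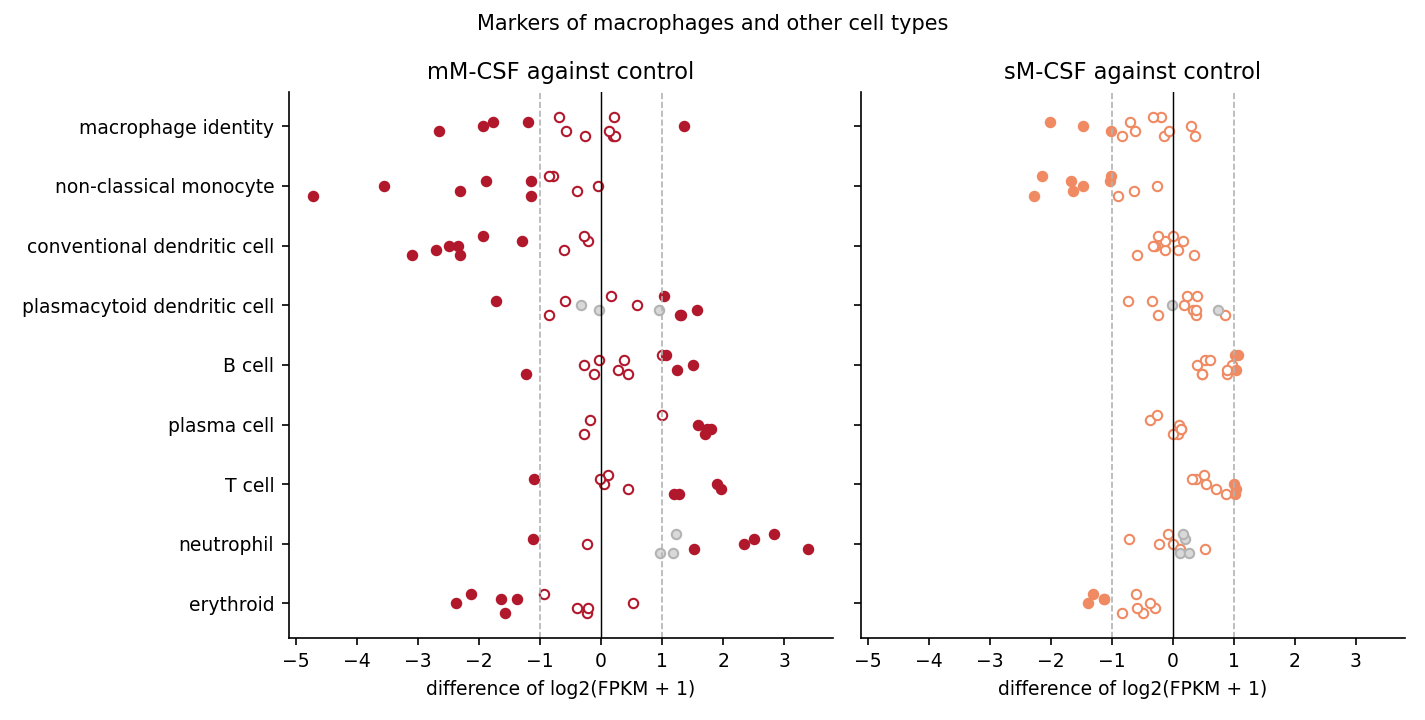
Difference of log2(FPKM + 1) of markers of macrophages and other cell types in mM-CSF (left) and sM-CSF (right) against control, where filled points passed the rule, open points did not and grey points were below 5 FPKM in both libraries. Conventional dendritic cell genes lie left of the 2-fold line in 7 of 10 cases in mM-CSF and in 0 in sM-CSF.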

How the data were processed

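RNA of sorted splenic macrophages was sequenced in 3 libraries, 1 in each group, from 1 ug of total RNA, on a BGISEQ instrument per the labels' protocols. The submitters' processing notes name Bowtie2 (2.2.5) and RSEM without a role for either, and the genome build and strand use are not given in the sources used here. Per the file headers, each deposited table holds an expected count, which is the authors' estimate and need not be whole, a gene length and an FPKM value scaled by the authors. Between 75.7% and 76.7% of listed counts were whole within 0.005. A gene absent from a table was set to 0.

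Symbols came from a RefSeq table of GRCm38.p6, which named all but 54 genes. Differences were taken between log2(FPKM + 1) values, which makes changes of low genes look smaller. A ratio of count shares has an exact conditional 95% interval, and an FPKM level an exact Poisson one. The length trend is a running median over 20 bins of length, fitted on genes at 5 FPKM or more on average. A list's median covers its genes at 1 FPKM or more in either library of the comparison, and the median of the 66 pathway genes covers those tested. The steps were tested on simulated data. Python 3.11.15, pandas 2.3.3 and scipy 1.17.1 were used.

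The members and gene lists were chosen with earlier results of these data known. Named genes were all members, up to 5 genes of each pathway list with the largest difference and 5 FPKM or more, a set of markers (1 of which is not reported here), and the 2 genes nearest to each member, of which those for 5 members are given. Tlr5, Tlr12 and Fam114a1 were added after their values were seen. Of the listed genes, Tasl and Trbc2 matched no gene in the tables. Sequences came from RefSeq, whose promoter table held 7 of the 10 members.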

Additional observations from a re-analysis of the deposited data

How the results depend on the processing

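The 5 members called lower in mM-CSF against control numbered between 4 and 7 over the alternatives, 4 with the length trend removed, with a minimum of 10 FPKM or centred on the macrophage genes. Tlr7, Tlr9 and Tlr13 passed in all 9 settings of scaling, centring, pseudocount and minimum. In sM-CSF against control, where 0 members passed, 1 passed with a pseudocount of 0.1 FPKM, 1 with median-of-ratios scaling, 1 with CPM, 2 with TPM and 5 at 1.5-fold. In mM-CSF against sM-CSF, where 5 passed, 3 passed with a minimum of 10 FPKM, 2 with median-of-ratios scaling, 3 with upper-quartile scaling, 2 with the length trend removed and 3 without Tlr1 and Tlr6. TPM scaling moved the median of all genes in mM-CSF against control by -0.43, so that 6.52% of calls were higher in place of 37.2%, against 45.2% (median-of-ratios), 46.7% (upper quartile) and 26.9% with the length trend removed. In mM-CSF against sM-CSF TPM moved it by -0.30, median-of-ratios by 0.12 and upper-quartile scaling by 0.10, and 6.59%, 48.0% and 45.2% of calls were higher in place of 30.3%. In sM-CSF against control TPM moved it by -0.14, and 19.0% of calls were higher in place of 32.5%, or 21.4% with the length trend removed.

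The endosomal minus surface difference without Unc93b1 was -1.38 in mM-CSF against control, -0.60 in sM-CSF against control and -0.78 in mM-CSF against sM-CSF. Without Tlr1 and Tlr6, a setting chosen after seeing the data, it was -1.32 in mM-CSF against control, -0.044 in sM-CSF against control and -1.27 in mM-CSF against sM-CSF. The other settings left it within counting error. With the length trend removed it was -0.99 in mM-CSF against control, with Tlr4 at 0.93 and the other 3 surface members below 0. The medians there were -0.56 for the surface and -1.36 for the endosomal members. The gap without Tlr4 was not computed. No paired analysis was possible because each group has 1 library. The cause of these dependences was not tested. A total of 3 counts, the floor, corresponds to 0.350, 0.335 and 0.330 CPM in the mM-CSF, sM-CSF and control libraries, far below every member.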
